A study of Mus musculus with 54 samples.

Results

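The motile cilia genes described here are the genes whose array annotation symbol starts with Cfap, Dnaaf, Dnah, Dnai, Rsph or Drc followed by a digit. They were 48 of the 18193 genes with a probe set of 1 symbol, namely 25 Cfap, 10 Dnah, 6 Rsph, 5 Dnaaf and 2 Drc genes and no Dnai gene. They had 79 probe sets in all, 22 members had more than 1, and the brightest probe set over the 54 arrays stood for each gene. The symbol rule takes genes by name only, and some members also act outside motile cilia.

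Motile cilia are beating cell projections built on a ring of microtubule doublets around a central pair. Outer and inner dynein arms on the doublets make the beat, radial spokes and the nexin-dynein regulatory complex control it, and the dynein arms are put together in the cytoplasm by assembly factors before they enter the cilium. In the brain such cilia are carried by ependymal cells, which line the ventricles, and by choroid plexus epithelium, while most neurons carry a single primary cilium that does not beat, and Foxj1 is the transcription factor known as the master regulator of motile cilia.

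The data were log2 expression values from Affymetrix mouse arrays on brainstem, hippocampus and striatum of male mice of 6 inbred strains. These were C3H HeJ and BalbC/J, then C57BL10/J, C57BLKS/J and C57L/J, and last C57BL6/J. All animals were unmodified inbred mice killed at postnatal day 60. Each strain and tissue had 3 arrays, each of RNA pooled from 3 mice, 1 from mice tested for prepulse inhibition (a softer sound before a loud one weakens the startle) from postnatal day 50 and 2 from untested mice. C57BL6/J served as the common comparison strain. Only 12 mice per strain were used, 6 of them tested, so the tissues of a strain shared animals and arrays of different tissues are not independent. Tests over pools measure the spread between pools of 3 mice.

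Array medians were 4.43 to 4.57 in brainstem, 4.53 to 4.72 in hippocampus and 4.17 to 4.31 in striatum, and the lowest value of an array also differed by tissue. To be tested in a tissue, a gene had to exceed the 40th percentile of an array (3.12 to 3.47) on 3 or more of the tissue's 18 arrays. On 53 of 54 arrays the most similar other array was of the same strain. The second untested C3H HeJ brainstem array stood apart, with a list of 11 cerebellar genes 3.34 log2 units above, and a list of 7 brainstem genes at -1.32 log2 units from, their medians over the brainstem arrays (medians over each list). The summed linear signal of the cerebellar list was 19868 to 207312 over brainstem arrays. Brainstem contrasts of C3H HeJ, counts over the strains and correlations are therefore given with and without that array, and the part of cerebellar tissue in them was not tested.

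Of the 48 members, 27 passed the level filter in at least 1 tissue, 18 passed in all 3 and 21 passed in none. By tissue 22 members passed in brainstem, 22 in hippocampus and 23 in striatum, or 45.8%, 45.8% and 47.9% of them, against 68.6%, 67.7% and 67.7% of all genes. The families differed in this: 15 of 25 Cfap, 5 of 6 Rsph, 3 of 5 Dnaaf and 2 of 2 Drc genes passed somewhere, against 2 of 10 Dnah genes, the dynein heavy chains that carry the motor itself. Because the tissue pieces held many cell types, fewer ciliated cells and less RNA per cell cannot be told apart in these values.

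The dynein heavy chains that stayed low in every tissue were Dnah5 and Dnah11 of the outer arm, Dnah2, Dnah6, Dnah7a and Dnah12 of the inner arm, and Dnah8 and Dnah17, known from sperm. Among the other members below the filter were the assembly factors Dnaaf1 and Dnaaf6, the spoke gene Rsph14, the central pair genes Cfap47 and Cfap221 and the genes of proteins inside the doublets Cfap45, Cfap52, Cfap53 and Cfap161. The rest were Cfap57, Cfap70, Cfap157 and Cfap299. Tissue means of these 21 members lay between 1.60 and 3.11 in brainstem, 1.58 and 3.24 in hippocampus, and 1.63 and 3.09 in striatum. Their single values reached 3.72 at most. These are signals at or near background, which does not show that the genes are silent in the few ciliated cells of a tissue piece.

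**Figure D1:**
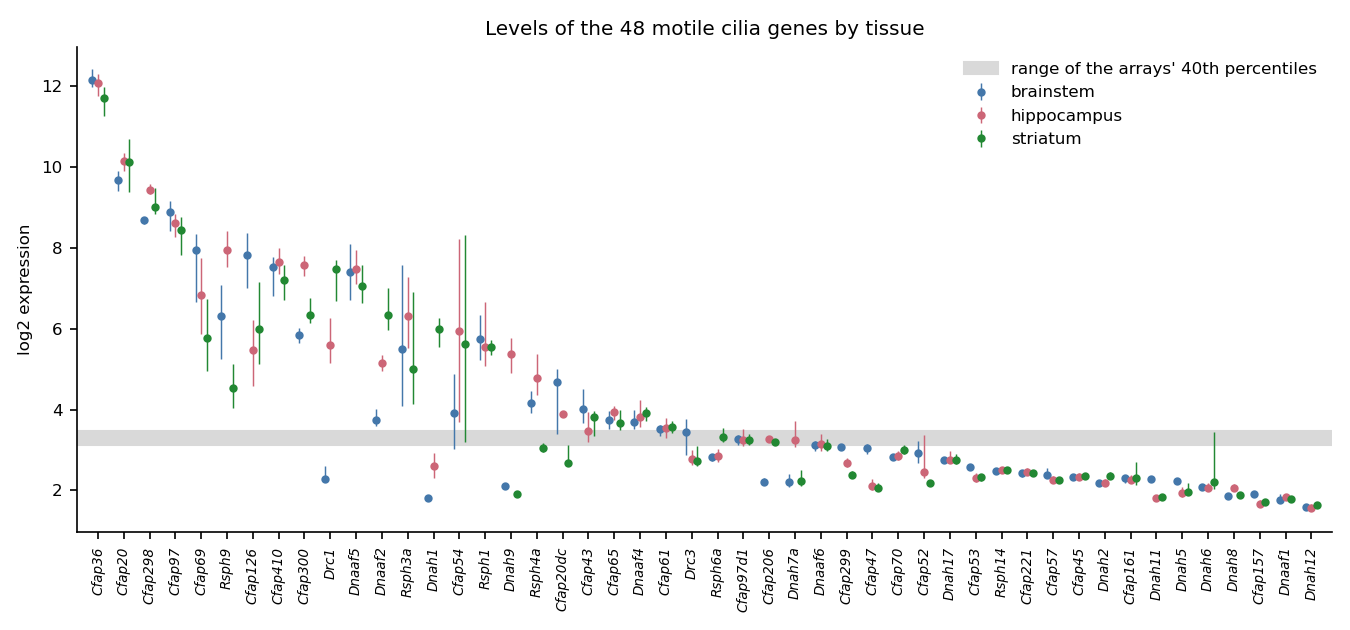
Levels of the 48 motile cilia genes in log2 units, with points at the mean and bars from the lowest to the highest of 18 arrays, by tissue; the band is the range of the arrays' 40th percentiles. Dnah9 lies above the band only in hippocampus, Dnah1 only in striatum, and Drc1 in hippocampus and striatum but not in brainstem.

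Levels of different probe sets cannot be ranked against each other, so each gene is described against itself. Cfap36 (a partner of the small GTPase Arl3), Cfap20 (a protein of the doublet's inner junction), Cfap97 and Cfap298 (a dynein arm assembly protein) lay far above the filter on every array. Their means were 12.14, 9.68, 8.88 and 8.67 in brainstem, 12.07, 10.14, 8.61 and 9.42 in hippocampus, and 11.70, 10.11, 8.44 and 9.0 in striatum.

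Tissue differences were wide for all genes, members included, as counted over the 27 that passed the filter in at least 1 tissue. A member that passed only through the tissue where it is high had to differ, so these counts are a description. Between brainstem and hippocampus 85.5% of 13199 genes tested were called (limma, Benjamini-Hochberg adjusted p under 0.05 over all genes tested), and 22 of 27 members were called, 8 higher (29.6%) and 14 lower (51.9%) in brainstem, against 45% and 40.5% of genes. Between brainstem and striatum 89.2% of genes and 25 of 27 members were called, 15 higher (55.6%) and 10 lower (37%) in brainstem, against 60.2% and 29.1% of genes. Between hippocampus and striatum 87.1% of genes and 22 of 27 members were called, 15 higher (55.6%) and 7 lower (25.9%) in hippocampus, against 63.3% and 23.8% of genes. The median difference of the members was -0.13, 0.20 and 0.17 log2 units in these comparisons, against 0.01, 0.31 and 0.24 for all genes tested.

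These splits depended on scaling. After quantile normalization of all arrays the median over all genes became 0.06 (brainstem against hippocampus), 0.10 (brainstem against striatum) and -0.01 (hippocampus against striatum). The members called then split into 9 higher and 14 lower, 9 higher and 13 lower, and 9 higher and 13 lower in the first tissue of each pair. The higher ones were 39.1%, 40.9% and 40.9% of the members called, against 56.6%, 55.1% and 49.3% of all genes called. The small differences between tissues are therefore given no direction here, and the large ones below keep theirs under that scaling.

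The sharpest tissue differences were in motor and regulatory complex genes. Dnah9, an outer arm dynein heavy chain, had 4.89 at the lowest, 5.37 at the median and 5.77 at the highest of 18 hippocampus arrays, against 1.84 to 1.99 in striatum and 2.09 to 2.19 in brainstem. Every hippocampus array lay above every array of the other tissues. The log2 difference was 3.47 for hippocampus minus striatum and -3.26 for brainstem minus hippocampus. It is given without a test and not as a fold, since Dnah9 passed the filter only through hippocampus and the low side lay at background, and the same holds for the differences against background of Dnah1 and Drc1.

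Dnah1, an inner arm heavy chain, stood out in striatum, at 5.55, 6.06 and 6.26 (lowest, median and highest of 18 arrays). It had 1.76 to 1.88 in brainstem and 2.30 to 2.92 in hippocampus. Striatum did not overlap with either, at log2 differences of -4.18 for brainstem minus striatum and -3.39 for hippocampus minus striatum, where striatum alone passed the filter.

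Drc1, a base-plate protein of the nexin-dynein regulatory complex, had 2.21 to 2.6 in brainstem. It reached 5.16, 5.56 and 6.26 in hippocampus and 6.67, 7.56 and 7.70 in striatum (lowest, median and highest of 18). The 3 tissues did not overlap, and brainstem, below the filter on every array, lay at -5.18 log2 units from striatum and -3.30 from hippocampus. Hippocampus and striatum, both above the filter, differed by -1.89 ± 0.06 (hippocampus minus striatum, SE, limma adjusted p = 1.19e-26). Drc3, the other member of that complex, passed the filter only in brainstem, on 15 of 18 arrays, with a mean of 3.45 there, 2.78 in hippocampus and 2.72 in striatum.

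Differences past 8-fold (3 log2 units) were found in 4.64% of genes tested between brainstem and hippocampus, 6.42% between brainstem and striatum and 3.38% between hippocampus and striatum. For Dnah9 12 of 18 hippocampus arrays lay within 0.05 log2 units of the gene's median, where the 580 genes of like level (within 0.5) had a median of 7 such arrays. For Dnah1 and Drc1 in striatum it was 10 of 18 arrays, against medians of 6 and 5. Cfap126 in striatum also had 10 of 18, against a median of 6. More such arrays were found in 11% of the genes of like level for Dnah9, 18.4% for Dnah1, 9.59% for Drc1 and 18.6% for Cfap126. Others had fewer than their like, Rsph9 with 2 of 18 in hippocampus (median 6) and 3 of 18 in striatum (median 8). Cfap126 in hippocampus had 3 of 18 (median 7). The standard deviations were ordinary. Of the genes of like level 40.3% had a smaller one than Dnah9 in hippocampus, and 33.5% and 55.6% a smaller one than Dnah1 and Drc1 in striatum. The second probe set of Dnah9 stayed between 1.77 and 1.86 in every strain and tissue mean, and that of Dnah1 between 1.23 and 1.35, so the tissue difference of both dyneins rests on 1 probe set each. The deposited values do not show whether the tissues were summarised together, and the part of that step in these differences was not tested.

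The radial spokes, which pass signals from the central pair to the dynein arms, differed among tissues by gene. Rsph9, a spoke head protein, had 5.24, 6.28 and 7.07 in brainstem, 7.53, 7.83 and 8.42 in hippocampus and 4.04, 4.50 and 5.12 in striatum (lowest, median and highest of 18). No array of one tissue reached the range of another. The differences were -1.63 ± 0.08 for brainstem minus hippocampus (limma adjusted p = 4.71e-20), 1.76 ± 0.08 for brainstem minus striatum (adjusted p = 2.66e-21) and 3.39 ± 0.08 for hippocampus minus striatum (adjusted p = 2.14e-30). Rsph4a, another head protein, took the same order, with means of 4.17 in brainstem, 4.78 in hippocampus and 3.04, below the filter, in striatum. Rsph3a of the spoke stalk was also highest in hippocampus (hippocampus minus striatum 1.31 ± 0.12, adjusted p = 2.04e-12), whereas Rsph1 differed by no more than 0.20 log2 units between any of the tissues. Rsph6a, a spoke head paralogue known from sperm, passed the filter only in striatum, and just above it (3.20 to 3.55). Cfap206, of the spoke base, also passed only in striatum, on 7 of 18 arrays, where the percentile is lower, and its mean was 3.19 there and 3.27 in hippocampus.

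Of the members that passed the filter in at least 1 tissue, some had brainstem means at least 0.5 log2 units above those of both other tissues. These were Cfap126, Cfap69, Cfap20dc and Drc3, the last given above. Cfap126, which encodes Flattop, a protein that positions basal bodies, had 7.01, 7.85 and 8.35 in brainstem, 4.57, 5.40 and 6.22 in hippocampus and 5.13, 5.95 and 7.15 in striatum (lowest, median and highest of 18). Only the highest striatum array, the tested C57BLKS/J pool, passed the lowest brainstem array. Brainstem minus hippocampus was 2.34 ± 0.11 (5.06-fold, limma adjusted p = 4.36e-21) and brainstem minus striatum 1.83 ± 0.11 (3.56-fold, adjusted p = 7.42e-18). Cfap69, a central pair protein, had 6.65, 8.01 and 8.32 in brainstem, 5.86, 7.02 and 7.74 in hippocampus and 4.94, 5.67 and 6.73 in striatum. The lowest brainstem value was that of the C3H HeJ array that stands apart, and the other brainstem arrays, at 7.73 or higher, met only the highest of the hippocampus arrays. The difference was 1.11 ± 0.11 over hippocampus (2.15-fold, adjusted p = 1.95e-11) and 2.17 ± 0.11 over striatum (4.50-fold, adjusted p = 3.51e-20). Cfap20dc averaged 4.68 in brainstem, 3.88 in hippocampus and 2.68, below the filter, in striatum.

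The assembly genes did not share an order. Dnaaf2, which helps fold dynein heavy chains, averaged 3.74 in brainstem, 5.16 in hippocampus and 6.34 in striatum, with brainstem minus striatum at -2.60 ± 0.04 (adjusted p = 2.85e-36). Cfap300 averaged 5.84 in brainstem, 7.58 in hippocampus and 6.34 in striatum, with brainstem minus hippocampus at -1.74 ± 0.04 (adjusted p = 4.21e-30). Cfap298 had its highest mean as deposited in hippocampus, though only 0.42 log2 units above striatum. Dnaaf4 and Dnaaf5 differed between tissues by less than 0.5 log2 units. The second Dnaaf4 probe set differed more, with strain means in hippocampus between 4.57 and 4.82, against 2.89 to 2.99 in striatum, and the mean of the gene's probe sets put hippocampus 0.82 log2 units above striatum.

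**Figure D2:**
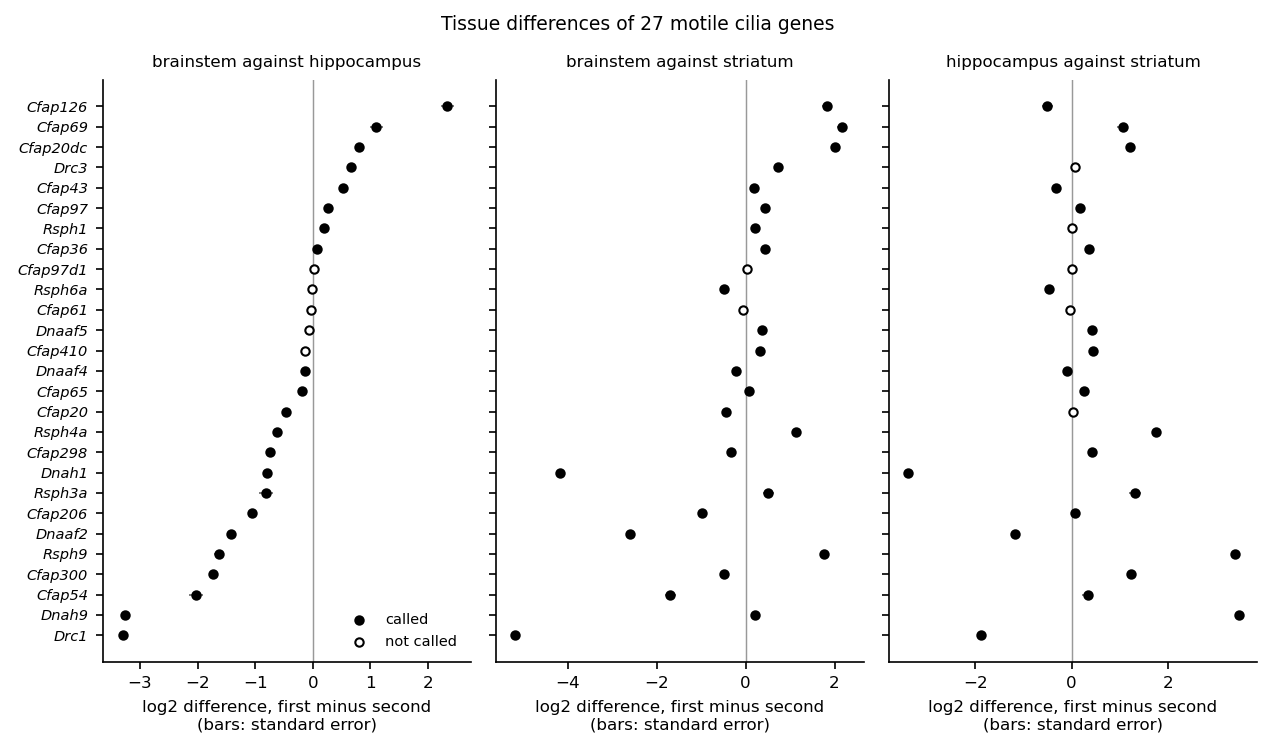
Log2 differences between tissues for the 27 motile cilia genes, with bars at the standard error and filled points for adjusted p under 0.05. Dnah1 and Drc1 lie far below 0 in brainstem minus striatum, Dnah9 and Rsph9 far above 0 in hippocampus minus striatum, and Cfap126 and Cfap69 above 0 in both brainstem comparisons.

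Foxj1, which is no member, had means of 7.88 in brainstem, 4.87 in hippocampus and 4.86 in striatum. It was higher in brainstem than in hippocampus by 3.01 ± 0.08 log2 units (adjusted p = 1.68e-29), with 0.01 between hippocampus and striatum (adjusted p = 0.878). Choroid plexus markers moved with the same contrast. Of 23 such genes with a probe set 21 were tested, of which 18 were higher and 2 lower in brainstem, with a median difference of 2.24 log2 units over hippocampus and 3.09 over striatum. Of all genes tested 45% were called higher and 40.5% lower in brainstem than in hippocampus, and 60.2% and 29.1% against striatum. A marker that passed the filter only through brainstem had to differ, so this count is a description. Their summed linear signal ranged over 64619 to 103575 in brainstem arrays, 3269 to 81767 in hippocampus arrays and 5286 to 82315 in striatum arrays. A list of 16 ependymal genes outside the axoneme (the microtubule core of the cilium) had another order of median sums. Its summed linear signal had a median of 85113 over brainstem arrays (76937 to 92891), 95777 over hippocampus arrays (81766 to 102396) and 66069 over striatum arrays (60600 to 70168). The brainstem and hippocampus ranges overlapped, and a linear sum is weighted to the brightest genes. Otx2, a defining transcription factor of choroid plexus, was above the level on no hippocampus or striatum array, and Tmem72 and Trpv4 on no array of any tissue. The part of choroid plexus carried along with a tissue piece in the member differences was not tested.

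**Figure D3:**
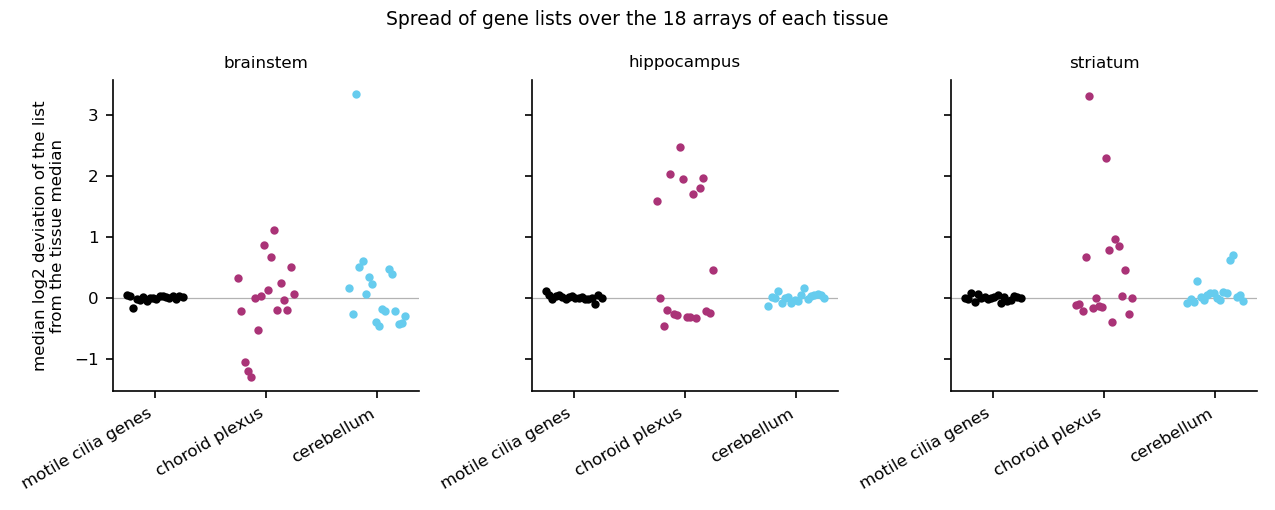
Deviation of each array from each gene's median over the arrays of the tissue, in log2 units, as the median over the motile cilia genes above the filter, the choroid plexus list and the cerebellar list, by tissue. The choroid plexus list spreads from -0.47 to 2.48 in hippocampus and -0.40 to 3.31 in striatum, while the motile cilia genes stay between -0.16 and 0.11 in all tissues.

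Array by array the members moved little as a group. The median deviation of the members from their medians over the arrays of a tissue was -0.16 to 0.04 in brainstem, -0.10 to 0.11 in hippocampus and -0.10 to 0.07 in striatum, where the choroid plexus list ranged over -1.30 to 1.11, -0.47 to 2.48 and -0.40 to 3.31 log2 units. The lowest member value, -0.16, was that of the C3H HeJ brainstem array that stands apart. After taking out strain means, pairs of members correlated over the 18 arrays of a tissue with a median r of 0.33 in brainstem, 0.12 in hippocampus and 0.19 in striatum, against 0.05, 0.02 and 0.03 for all pairs of tested genes. Without the array that stands apart the brainstem medians were 0.10 for members and 0.02 for all genes. These are descriptions over arrays that share scaling, dissection and mice. With Foxj1, Cfap126 correlated at 0.65 in hippocampus and 0.62 in striatum (n = 18 arrays each), and in brainstem at 0.61 with all arrays and 0.33 without the one that stands apart. Rsph1 reached 0.71 in hippocampus, and Dnaaf4 0.66 and Rsph6a 0.65 in striatum. In brainstem Cfap69 had 0.75 and Cfap410 0.69 with all 18 arrays, but 0.26 and 0.16 without that array, so these rest on it. The values named are high ones, and other members went the other way. Over the 22 members tested in brainstem the correlations with Foxj1 ran from -0.61 (Dnaaf2) to 0.75 (Cfap69) with all arrays. Without that array they ran from -0.55 (Cfap36) to 0.33 (Cfap126), with Cfap97 at -0.50 and Rsph1 at -0.06.

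Among the 6 strains 4 of 22 members differed in brainstem, 6 of 22 in hippocampus and 6 of 23 in striatum (limma moderated F test). These were 18.2%, 27.3% and 26.1% of the members tested, near or below the 23%, 31.2% and 26.2% of all genes called. The members called were Cfap54, Rsph3a and Cfap97 in all 3 tissues, Cfap36 and Cfap69 in hippocampus and striatum, Cfap126 in brainstem, Drc1 in hippocampus and Cfap20 in striatum. With the C3H HeJ array that stands apart left out, 6 of 22 members were called in brainstem, when 37.7% of all genes were.

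Cfap54, a protein of the central pair apparatus, had the widest strain range of any member in hippocampus and striatum. In hippocampus its values (tested, first and second untested pool) were 7.57, 7.68 and 7.31 in C3H HeJ, 7.70, 7.67 and 7.67 in BalbC/J, and 7.79, 7.92 and 8.21 in C57L/J. They were 3.69, 4.60 and 4.77 in C57BL10/J, 4.67, 3.78 and 3.78 in C57BLKS/J, and 4.44, 3.89 and 3.91 in C57BL6/J. All 9 arrays of C3H HeJ, BalbC/J and C57L/J lay above all 9 of the other strains, with a gap of 2.54 log2 units between the closest arrays.

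Striatum repeated that split, at 7.63, 7.76 and 7.77 in C3H HeJ, 7.27, 6.88 and 7.47 in BalbC/J, and 7.80, 8.32 and 7.97 in C57L/J. The other strains had 3.5, 3.19 and 3.70 in C57BL10/J, 4.83, 3.20 and 3.57 in C57BLKS/J, and 3.61, 3.22 and 3.32 in C57BL6/J. The gap was 2.05 log2 units, and the low strains lay close to the level filter.

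Against C57BL6/J the hippocampal difference was 3.44 ± 0.27 in C3H HeJ (SE, limma adjusted p = 3.04e-07), 3.60 ± 0.27 in BalbC/J (adjusted p = 2.07e-07) and 3.89 ± 0.27 in C57L/J (adjusted p = 1.17e-07). In striatum it was 4.33 ± 0.30 (C3H HeJ, adjusted p = 2.59e-07), 3.82 ± 0.30 (BalbC/J, adjusted p = 1.46e-06) and 4.64 ± 0.30 (C57L/J, adjusted p = 1.86e-07). Neither C57BL10/J, at 0.28 and 0.08 in hippocampus and striatum, nor C57BLKS/J, at -0.00 and 0.48, was called.

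In brainstem the gene was low in all strains. It had 3.94, 4.64 and 3.71 in C3H HeJ, 3.72, 4.48 and 4.10 in BalbC/J, 3.67, 3.70 and 3.71 in C57BL10/J, 3.43, 3.71 and 3.64 in C57BLKS/J, 4.84, 4.42 and 4.87 in C57L/J, and 3.67, 3.04 and 3.31 in C57BL6/J. C57L/J lay above all arrays of C57BL10/J, C57BLKS/J and C57BL6/J, at 1.37 ± 0.24 over C57BL6/J (limma adjusted p = 0.00351), while the lowest C3H HeJ array overlapped with C57BL10/J. C3H HeJ lay 0.76 ± 0.24 above C57BL6/J (adjusted p = 0.0390), a call lost with no filter (adjusted p = 0.0544), under quantile normalization (0.0547) and without any one of 10 arrays. The difference became 0.48 (adjusted p = 0.115) without the first untested C3H HeJ pool and 0.59 (adjusted p = 0.158) without the first untested C57BL6/J pool. The call was kept, at 0.97 ± 0.23 (adjusted p = 0.00911), without the array that stands apart. BalbC/J lay 0.76 ± 0.24 above it and was not called (adjusted p = 0.0506). The strain differences depended on tissue by a test of the interaction (adjusted p = 2.96e-10). A second Cfap54 probe set stayed near background in every strain, so this pattern rests on 1 probe set. Averaged over the strains, brainstem lay -2.03 ± 0.12 from hippocampus (adjusted p = 1.51e-18) and -1.69 ± 0.12 from striatum (adjusted p = 2.96e-16).

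**Figure D4:**
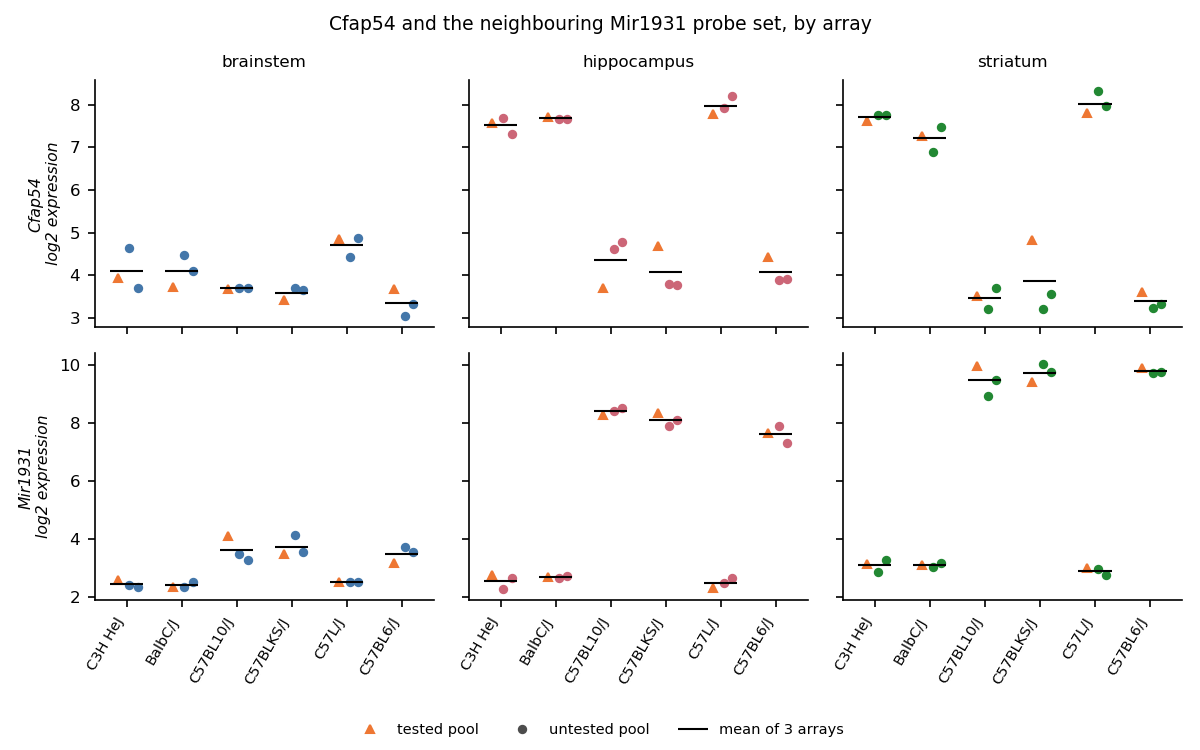
Levels of Cfap54 and of the probe set annotated as its neighbour Mir1931, in log2 units, on each array by strain and tissue, with triangles for tested pools, circles for untested pools and a line at the mean of 3. For Cfap54 C3H HeJ, BalbC/J and C57L/J lie between 6.88 and 8.32 in hippocampus and striatum, where C57BL10/J, C57BLKS/J and C57BL6/J lie between 3.19 and 4.83, and Mir1931 shows the opposite order.

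The split of strains was chosen after the values were seen, so it is given as a count without a test. All 9 arrays of C3H HeJ, BalbC/J and C57L/J exceeded the other 9 for 44 of 12484 brainstem genes (0.352%), 37 of 12315 hippocampus genes (0.3%) and 31 of 12320 striatum genes (0.252%). Cfap54 had the largest mean difference of these in hippocampus, 3.55, and in striatum, 4.08.

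The neighbouring genes on chromosome 10 were set beside it, also after their values were seen. Of the 5 nearest genes with a probe set on each side, 9 were tested in brainstem, 7 in hippocampus and 8 in striatum, and 2, 2 and 3 differed among strains, when 23%, 31.2% and 26.2% of all genes did. Ikbip and Mir1931 did so in all 3 tissues and Lta4h in striatum. The probe set annotated as Mir1931, at the second place from Cfap54, ran the opposite way. In hippocampus it had 2.75, 2.28 and 2.66 in C3H HeJ, 2.70, 2.67 and 2.72 in BalbC/J, and 2.31, 2.48 and 2.66 in C57L/J. It had 8.28, 8.42 and 8.5 in C57BL10/J, 8.35, 7.88 and 8.10 in C57BLKS/J, and 7.64, 7.90 and 7.31 in C57BL6/J. The low strains lay below the level filter in hippocampus, so the probe set passed there only through the strains where it is high. Its values are therefore given without a test, and its place in the counts above is a description.

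The strains low for Cfap54 were thus the strains high for this probe set, with no overlap. In striatum all 9 arrays of C3H HeJ, BalbC/J and C57L/J had 2.77 to 3.27 and the other 9 had 8.93 to 10.02. In brainstem its strain means were 2.45 in C3H HeJ, 2.41 in BalbC/J, 3.62 in C57BL10/J, 3.71 in C57BLKS/J, 2.52 in C57L/J and 3.5 in C57BL6/J. Such a 3' array measures polyadenylated transcript and not the mature microRNA, whose sequence in RefSeq is shown to identify the locus, with the seed (bases 2 to 8) in capitals (GRCm38.p6, chr10:93162879-93162900, plus strand).
mmu-miR-1931: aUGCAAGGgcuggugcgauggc
Whether sequence differences between the strains under either probe set change the signal was not tested.

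Rsph3a, the spoke stalk gene, was highest in C57L/J. In striatum the values (tested, first and second untested pool) were 6.46, 5.96 and 6.91 in C57L/J, against 4.71, 4.68 and 4.71 in C57BL6/J. In brainstem they were 7.57, 7.45 and 6.37 in C57L/J, against 5.25, 5.28 and 5.24 in C57BL6/J. No array overlapped in either tissue. C57L/J exceeded C57BL6/J by 1.74 ± 0.25 in striatum (limma adjusted p = 7.61e-04) and by 1.87 ± 0.36 in brainstem (adjusted p = 0.00952). The brainstem call was lost without the tested C57L/J pool (1.63, adjusted p = 0.0563) or without its first untested pool (1.69, adjusted p = 0.0561). In hippocampus the values were 7.13, 7.28 and 6.57 in C57L/J and 6.27, 6.35 and 6.23 in C57BL6/J, a difference of 0.71 that was not called (adjusted p = 0.0810). C57BL10/J was next in mean in all 3 tissues, at 5.95 in brainstem, 6.55 in hippocampus and 5.30 in striatum. Over the 6 strains the adjusted p was 0.00140 in brainstem, 0.00687 in hippocampus and 2.22e-04 in striatum. Its second probe set stayed at background.

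Cfap97 was the member called the same way in all 3 tissues in C57L/J other than Cfap54, and there it was lower. Its values were 8.71, 8.42 and 8.65 in C57L/J brainstem, against 9.06, 9.14 and 8.97 in C57BL6/J. They were 8.5, 8.33 and 8.26 in C57L/J hippocampus, against 8.82, 8.51 and 8.79 in C57BL6/J, and 8.24, 7.82 and 7.91 in C57L/J striatum, against 8.54, 8.47 and 8.40 in C57BL6/J. The C57L/J arrays lay below the C57BL6/J arrays in each tissue, in hippocampus by the narrowest margin. The differences were -0.46 ± 0.09 (adjusted p = 0.0101), -0.34 ± 0.09 (adjusted p = 0.0323) and -0.48 ± 0.11 (adjusted p = 0.0231), in the order brainstem, hippocampus and striatum. Each rested on single arrays. Without the first untested pool of C57L/J or of C57BL6/J the adjusted p was 0.0591 or 0.0661 in brainstem. It was 0.0862 or 0.128 in hippocampus without the first or second untested C57L/J pool, and 0.0835 or 0.166 without the tested or second untested C57BL6/J pool. In striatum it was 0.102 without either untested C57L/J pool, and 0.0841, 0.0948 and 0.0582 without the tested, first and second untested C57BL6/J pool. Over the 6 strains the call was lost without a single C57L/J pool, the first untested one in brainstem (adjusted p = 0.0666) and the second in hippocampus (adjusted p = 0.0599). Both further Cfap97 probe sets had lower means in C57L/J than in C57BL6/J in every tissue, for the second 5.34 and 6.28 in brainstem, 5.13 and 5.45 in hippocampus and 4.44 and 5.01 in striatum. That second probe set was not called (adjusted p = 0.156, 0.160 and 0.0748).

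Counted by strain, members called against C57BL6/J were few in number, among 22 tested in brainstem, 22 in hippocampus and 23 in striatum. C3H HeJ had 3, 4 and 3 in that order (13.6%, 18.2% and 13%), beside 19.3%, 18% and 17.6% of all genes called. BalbC/J had 0, 2 and 2 (0%, 9.09% and 8.7%, against 12.3%, 15.1% and 7.68% of genes), with an unadjusted limma p under 0.05 for 2 members in brainstem. C57L/J had 3, 2 and 3 (13.6%, 9.09% and 13%), above the 3.28%, 4.39% and 4.3% of genes. Those C57L/J calls were of Cfap54 and Cfap97 in each tissue and of Rsph3a in brainstem and striatum. C57BLKS/J had 0, 1 and 0 (2.74%, 5.57% and 2.18% of genes), with no member at an unadjusted p under 0.05 in brainstem or striatum, and C57BL10/J had 0, 0 and 0 (2.75%, 2.25% and 0.536% of genes), where limma gave an unadjusted p under 0.05 for 1, 2 and 3 members. These comparisons share the C57BL6/J arrays.

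Cfap69 was lower in C3H HeJ. In hippocampus it had 6.39, 6.77 and 6.15 in C3H HeJ and 6.12, 5.95 and 6.12 in C57BLKS/J, against 7.35, 7.26 and 7.13 in C57BL6/J. Both strains lay below every C57BL6/J array. The differences were -0.81 ± 0.25 in C3H HeJ (limma adjusted p = 0.0391) and -1.18 ± 0.25 in C57BLKS/J (adjusted p = 0.0117). In striatum it had 4.98, 4.94 and 5.48 in C3H HeJ, against 6.30, 5.68 and 5.93 in C57BL6/J (-0.84 ± 0.25, adjusted p = 0.0345). The C3H HeJ call was lost in hippocampus without the tested or second untested C3H HeJ pool (adjusted p = 0.0920 and 0.161), without any C57BL6/J pool (0.0613 to 0.137) and without the second untested pool of C57BL10/J or C57BLKS/J (0.0513 and 0.0501). In striatum it was lost without the tested or first untested C3H HeJ pool (adjusted p = 0.126 and 0.124) and without the tested or second untested C57BL6/J pool (0.150 and 0.0859). The C57BLKS/J call was lost without its first untested pool (-1.11, adjusted p = 0.0521). Over the 6 strains in striatum the call was lost without the tested or first untested pool of C3H HeJ or of BalbC/J (adjusted p = 0.0541 to 0.0673). In brainstem C3H HeJ had 7.99, 8.04 and 6.65, the last on the array that stands apart, against 7.84, 8.17 and 8.30 in C57BL6/J, a difference of -0.55 with that array (adjusted p = 0.182) and -0.07 without it (adjusted p = 0.723). The other Cfap69 probe sets lay at background.

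Cfap36 differed by small steps that were large against its spread. In hippocampus it had 11.76, 11.74 and 11.77 in BalbC/J and 12.28, 12.26 and 12.23 in C3H HeJ, against 12.18, 12.02 and 12.08 in C57BL6/J. BalbC/J lay below every C57BL6/J array and C3H HeJ above, at -0.34 ± 0.05 (limma adjusted p = 1.94e-04) and 0.17 ± 0.05 (adjusted p = 0.0274, and 0.0635 to 0.0881 without any one C3H HeJ pool or an untested C57BL6/J pool). In striatum BalbC/J had 11.25, 11.56 and 11.57, against 11.87, 11.82 and 11.70 in C57BL6/J (-0.34 ± 0.09, adjusted p = 0.0271), a call lost without the tested BalbC/J pool (-0.20, adjusted p = 0.0778) or without the tested or first untested C57BL6/J pool (0.107 and 0.106), and over the 6 strains without the tested C3H HeJ pool (adjusted p = 0.0530). In brainstem C3H HeJ was 0.12 above C57BL6/J with all arrays (adjusted p = 0.258) and 0.22 ± 0.05 above it without the array that stands apart (adjusted p = 0.00358).

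**Figure D5:**
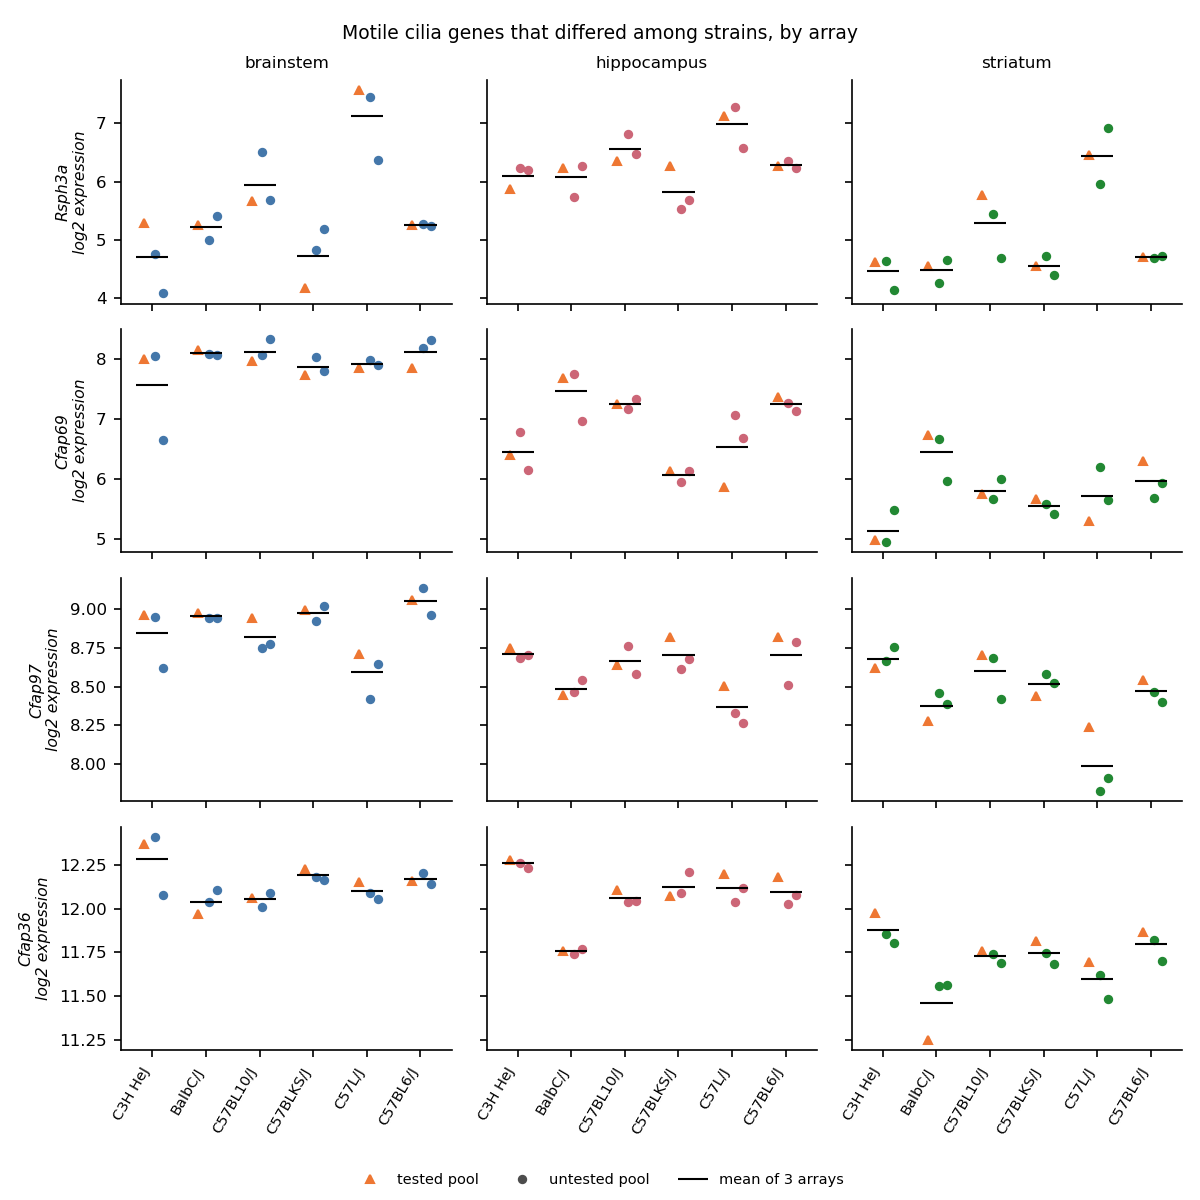
Rsph3a, Cfap69, Cfap97 and Cfap36 levels in log2 units on each array by strain and tissue, with triangles for tested pools, circles for untested pools and a line at the mean of 3. Rsph3a is highest in C57L/J and Cfap97 lowest there, Cfap36 is lowest in BalbC/J, and 1 C3H HeJ brainstem array is low for Cfap69 at 6.65.

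The remaining calls were single ones. Rsph1, of the spoke head, had 6.67, 6.32 and 5.44 in C3H HeJ hippocampus, against 5.23, 5.47 and 5.30 in C57BL6/J, where the second untested C3H HeJ pool overlapped (0.81 ± 0.23, limma adjusted p = 0.0252, and 0.48, adjusted p = 0.146, without the tested C3H HeJ pool). The adjusted p was 0.0793 to 0.0891 without the first untested C3H HeJ, the tested C57BL6/J or the second untested C57BL6/J pool. Dnaaf2 had 6.62, 6.65 and 7.0 in C3H HeJ striatum, all above the 6.24, 6.14 and 6.19 of C57BL6/J (0.57 ± 0.16, adjusted p = 0.0227, and 0.0588 to 0.10 without the second untested C3H HeJ pool or any C57BL6/J pool, with 0.0589 under quantile normalization). Drc1 over the 6 strains in hippocampus was highest in BalbC/J, at 5.97, 5.72 and 6.26, against 5.66, 5.61 and 5.47 in C57BL6/J (adjusted p = 0.0276 over the 6 strains, and 0.0536 to 0.108 without the tested or second untested BalbC/J pool or an untested C3H HeJ pool).

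Cfap20 over the 6 strains in striatum was highest in C3H HeJ, at 10.51, 10.41 and 10.68, and lowest in C57L/J, at 9.91, 9.92 and 9.37, with 10.35, 10.14 and 10.04 in C57BL6/J (adjusted p = 0.0286, and 0.0554 to 0.102 without any one C3H HeJ pool). Its second probe set was also highest in C3H HeJ and lowest in C57L/J in striatum. Cfap20 was the other member whose strain differences depended on tissue, when 18.1% of 11605 genes did and 2 of 18 members, but its adjusted p of 0.0491 was lost without any one of 37 of the 54 arrays (up to 0.122).

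In brainstem the C3H HeJ calls of Cfap126 and Drc3 rested on the array that stands apart. Cfap126 had 7.49, 7.45 and 7.01 in C3H HeJ, against 7.83, 7.85 and 7.84 in C57BL6/J, or -0.52 ± 0.15 (limma adjusted p = 0.0242), and -0.34 ± 0.12 (adjusted p = 0.0627) without that array. Without any one C57BL6/J pool its adjusted p was 0.0561 to 0.0858. Drc3 had 3.29, 3.31 and 2.89 in C3H HeJ, against 3.46, 3.49 and 3.51 in C57BL6/J, or -0.32 ± 0.11 (adjusted p = 0.0492), and -0.19 ± 0.09 (adjusted p = 0.157) without it, a call also lost without any one of 12 other arrays, with the replicate block (adjusted p = 0.0604), with no filter (0.0664) and without the intensity trend (0.0566). Foxj1 on the same arrays was 7.60, 7.77 and 6.45. Without that array 3 members were called in C3H HeJ, Cfap54, Cfap36 and Cfap20 (0.31 ± 0.10, adjusted p = 0.0350), when 21.6% of all genes were. Foxj1 itself did not pass among the 6 strains with all arrays (adjusted p = 0.0653 in brainstem, 0.891 in hippocampus and 0.716 in striatum), but passed in brainstem without that array (adjusted p = 0.00943).

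Testing for prepulse inhibition moved no member past the threshold. Limma called 0 members and 0 genes between tested and untested pools in brainstem, hippocampus and striatum (0% in each), and an unadjusted p under 0.05 was found for 0, 1 and 1 members and for 281, 488 and 467 genes. The members with the smallest p were Dnaaf4, Cfap61 and Cfap97 in brainstem, Rsph9, Dnah9 and Cfap126 in hippocampus, and Cfap126, Rsph9 and Dnah1 in striatum. Tested minus untested was -0.25 ± 0.10 log2 units for Rsph9 in hippocampus and 0.19 in striatum. For Cfap126 it was 0.43 ± 0.19 in striatum and -0.32 in hippocampus, so both genes had opposite signs in the 2 tissues.

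Other genes of the motile cilium, listed by name, also moved in both directions. Of 98 such genes 72 had a probe set, and 33 passed the filter in brainstem, 30 in hippocampus and 33 in striatum, of which 4, 5 and 4 differed among strains (12.1%, 16.7% and 12.1%, against 23%, 31.2% and 26.2% of all genes), and 7 in brainstem without the array that stands apart. Between brainstem and hippocampus 16 were higher and 15 lower of 41 tested, with a median of -0.02, between brainstem and striatum 18 and 16 (median 0.03), and between hippocampus and striatum 17 and 14 (median 0.04). Of all genes tested 45% were called higher and 40.5% lower in the first comparison, 60.2% and 29.1% in the second, and 63.3% and 23.8% in the third. A gene that passed only through its high tissue had to differ, so these counts are a description. The effect of scaling on them was not tested. Nme7, a kinase-family protein of the doublet lumen, was the sharpest. It had 11.22, 11.43 and 11.38 in C3H HeJ brainstem, against 8.0, 8.08 and 8.07 in C57BL6/J (adjusted p = 5.74e-13 over the 6 strains). C3H HeJ was high in the other tissues too, at 10.67, 10.72 and 10.40 in hippocampus, against 8.96, 9.10 and 9.10 in C57BL6/J, and at 10.18, 10.25 and 10.20 in striatum, against 9.09, 9.02 and 9.03 in C57BL6/J. No C3H HeJ array overlapped with C57BL6/J.

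Promoters were read where RefSeq gives one, from 250 bases before to 50 bases after the gene start (GRCm38.p6). There were 42 promoters for 39 members. Members of the RFX family, which act with Foxj1 in ciliated cells, bind the X-box, whose core was searched as GTTGCC and whose full form as GTTGCCNNNGNAAC, both on either strand, the full form containing the core. The core was in 11 of 42 member promoters (26.2%) and in 12.5% of 32851 promoters of all genes. The full form was in 4 of 42 (9.52%), those of Dnaaf2, Dnaaf6, Cfap20dc and Cfap298, and in 0.426% of all. GTAAACA, a form of the forkhead motif that Foxj1 can bind, was in 3 of 42 (7.14%) and in 3.65% of all. A match is a description of letters and not a site of binding.

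The promoters of the 3 members with a full X-box form that passed the filter are shown because their levels differ by tissue, Cfap20dc with its highest mean in brainstem, Cfap298 in hippocampus and Dnaaf2 in striatum. Capitals mark the match, which begins 102, 188 and 17 bases before the start. In Dnaaf2 it lies on the other strand. The regions are chr14:8666241-8666540, chr16:90934800-90935099 and chr12:69198380-69198679, all on the minus strand.
Cfap20dc: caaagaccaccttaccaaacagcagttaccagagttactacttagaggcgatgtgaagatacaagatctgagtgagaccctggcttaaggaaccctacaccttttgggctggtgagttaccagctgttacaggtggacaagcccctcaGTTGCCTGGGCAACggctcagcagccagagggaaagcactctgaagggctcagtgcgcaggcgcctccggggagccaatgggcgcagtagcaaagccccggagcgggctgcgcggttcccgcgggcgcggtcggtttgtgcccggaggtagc
Cfap298: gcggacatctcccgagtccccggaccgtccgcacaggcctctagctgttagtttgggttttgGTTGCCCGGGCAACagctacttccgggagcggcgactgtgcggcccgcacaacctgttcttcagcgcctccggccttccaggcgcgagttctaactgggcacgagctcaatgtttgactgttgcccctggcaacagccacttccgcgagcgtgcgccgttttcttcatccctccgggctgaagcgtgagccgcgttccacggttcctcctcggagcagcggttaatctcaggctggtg
Dnaaf2: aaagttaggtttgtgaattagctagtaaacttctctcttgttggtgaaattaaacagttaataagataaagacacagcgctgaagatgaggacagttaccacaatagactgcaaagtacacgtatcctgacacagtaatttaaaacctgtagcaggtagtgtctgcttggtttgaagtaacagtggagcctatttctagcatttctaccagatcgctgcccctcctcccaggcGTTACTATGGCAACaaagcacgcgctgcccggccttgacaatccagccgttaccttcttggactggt
The promoters of Rsph3a and Cfap69 hold none of the 3 motifs. The 3 genes with a full form were shown for their tissue differences, so no relation of the motif to tissue can be read from them.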

How the data were processed

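The authors deposited log2 expression values per probe set for the 54 arrays. Per the submitters' processing notes they used R 2.6.1, affy 1.16.0, RMA, GCRMA 2.10.0 and limma 2.12.0, and they do not say which of RMA and GCRMA made the values. They were analysed as deposited in R 4.3.3 with limma 3.58.1. Among 45101 probe sets 34945 had 1 symbol and 64 were controls. Each gene's brightest probe set over all arrays was used, and a gene was tested in a tissue where 3 or more arrays had it above their 40th percentile. Models held strain and testing within a tissue (18 arrays) or strain and testing within each tissue (54 arrays), with an intensity trend, two-sided tests and Benjamini-Hochberg adjustment over all genes tested, called at 0.05. The number of arrays limits the precision. The tests were tried on simulated data. Alternatives changed the filter, the probe set, the scaling, the trend, the testing term and a replicate block, and left out each array.

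Members named are the 5 with the highest mean in each tissue, the 5 largest called differences in each direction per tissue contrast, the 6 widest called strain ranges per tissue, members called alike in 3 tissues for a strain, the 3 smallest p for testing, and Foxj1. Other members and neighbours were named after their values were seen. Members and lists were chosen with earlier results of these data known. The labels give no hybridization batch. The growth protocol's strain list omits C57BL10/J, which the sample labels give.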

Additional observations from a re-analysis of the deposited data

Results flagged for a closer look

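The strain differences of 2 of 18 motile cilia genes (11.1%, against 18.1% of all genes) differed between tissues by a test of the interaction. For Cfap54 the adjusted p of limma was 2.96e-10, with C3H HeJ minus C57BL6/J at 0.76 in brainstem, 3.44 in hippocampus and 4.33 in striatum. For Cfap20 it was 0.0491, with strain means ranging over 0.27 log2 units in brainstem, 0.20 in hippocampus and 0.80 in striatum. The Cfap20 call was lost with no filter (0.0681), under quantile normalization (0.0819), without the intensity trend (0.0533) and on leaving out most single arrays.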

How the results depend on the processing

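No strain call of Cfap54 in hippocampus or striatum was lost under any alternative. Its second probe set stayed near background in every strain, so the pattern still rests on 1 probe set. Quantile normalization ended calls between tissues, hippocampus against striatum for Cfap54 (0.06, adjusted p = 0.667), Cfap65 (0.506), Cfap410 (0.118) and Dnaaf5 (0.380), and brainstem against striatum for Cfap410 (0.213), Dnaaf5 (0.142) and Rsph3a (0.0724). Cfap69 in C3H HeJ was also lost with no filter in hippocampus (adjusted p = 0.0512) and with the mean of its probe sets (0.115 in hippocampus, 0.0559 in striatum), and Cfap36 in C3H HeJ hippocampus without the intensity trend (0.0515), while the tissue dependence of Cfap20 was lost with no filter (0.0681). With a filter at the 60th percentile, members called among strains in brainstem fell to 2 from the 4 reported, C57L/J against C57BL6/J in brainstem gave 1, the tissue comparisons gave 12 (brainstem against hippocampus), 14 (brainstem against striatum) and 13 (hippocampus against striatum), and the interaction gave 1. With no filter C3H HeJ in brainstem gave 1 and the tissue comparisons 35, 38 and 34, since more members were tested. Without the testing term BalbC/J in brainstem gave 1 against 0. The interaction also gave 1 under quantile normalization and 1 without the intensity trend. Leaving out each array, members called among strains were 3 to 6 in brainstem, 5 to 7 in hippocampus and 3 to 8 in striatum. The interaction gave 1 to 3, and the tissue comparisons 22 to 23, 24 to 26 and 21 to 23. Against C57BL6/J they were, in brainstem, hippocampus and striatum, 0 to 4, 1 to 4 and 1 to 4 for C3H HeJ, 0 to 2, 2 to 3 and 1 to 2 for BalbC/J, and 1 to 4, 1 to 3 and 2 to 4 for C57L/J. For C57BL10/J they were 0 to 1 in brainstem and in hippocampus, and for C57BLKS/J 0 to 1 in hippocampus, with 0 to 0 in the other tissues and for testing. Quantile normalization turned hippocampus minus striatum to -0.0485 for Cfap206 and -0.10 for Cfap97, and brainstem minus striatum to -0.00603 for Cfap43, -0.0911 for Cfap65 and -0.10 for Rsph1. The mean of a gene's probe sets turned Dnaaf4 to 0.82 (hippocampus minus striatum) and 0.0479 (brainstem minus striatum) and Dnaaf5 to -0.0868 (brainstem minus striatum), and the cause was not tested. Pools of one number in different tissues had a median correlation of deviations of 0.01 (hippocampus and striatum), 0.11 (hippocampus and brainstem) and -0.01 (striatum and brainstem). Of 18 pairs 4, 10 and 2 were over 0.1. Deviations from means of 3 arrays cannot decide whether pools of one number held the same mice. With the replicate block C3H HeJ in brainstem gave 2 members, and the interaction 2.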

Other observations

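Genes that serve cilia of both kinds were also counted. Of 30 intraflagellar transport genes, which carry cargo along cilia, 6 differed among strains in brainstem, 6 in hippocampus and 10 in striatum (20%, 20% and 33.3%, against 23%, 31.2% and 26.2% of all genes), and for 9 of them the strain differences depended on tissue (30%, against 18.1% of genes). Of the BBSome and primary cilium genes 4 of 21 brainstem, 8 of 22 hippocampal and 7 of 22 striatal tests passed among strains (19%, 36.4% and 31.8%). For the choroid plexus list 5 of 20, 0 of 18 and 0 of 17 passed limma's adjusted p, with an unadjusted p under 0.05 for 9, 0 and 3. Strain differences depended on tissue for 4 of 21 BBSome and primary cilium genes (19%). They did so for 2 of 25 other motile cilium genes (8%) and 0 of 16 choroid plexus genes (0%). Without the C3H HeJ brainstem array that stands apart, 12 intraflagellar transport, 6 BBSome and primary cilium and 10 choroid plexus genes differed among strains in brainstem. Of all genes 37.7% then passed.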
